A study of Mus musculus with 4 samples.

Results

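The secreted and cell-surface enzymes that digest extracellular matrix, and the proteins that hold them in check, were followed as a group of 10 genes in murine 4T1 breast cancer cells. The group holds the matrix metalloproteinase genes Mmp3, Mmp9, Mmp10, Mmp13 and Mmp14, the inhibitor genes Timp1, Timp2 and Timp3, and Plau and Plaur, which encode urokinase and its receptor. They were chosen by name for what their proteins do, and with earlier results of these data known. They were found by gene symbol among the 49585 genes of the deposited expression matrix. Of the 10 genes, 9 were among the 12669 expressed genes, defined as reaching FPKM 1 in any of the 4 libraries. FPKM counts the fragments, or read pairs, of a gene relative to exon length and to the total of its library, so it compares levels per length. The exception was Timp3.

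4T1 is a mouse line used as a model of triple-negative breast cancer. The cells here were 4T1-HM and 4T1-LM, single-cell clones of that line, the former highly and the latter weakly metastatic. Each clone was cultured for 48 h with 50 μM of deferasirox (DFX), an iron chelator, or with its solvent DMSO alone, and bulk RNA was sequenced from 1 library per condition, named HM_Ctrl, HM_DFX, LM_Ctrl and LM_DFX. Each metastatic class is a single clone, so metastatic capacity and clone cannot be told apart, and all 4 cultures received DMSO.

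With 1 library per condition, no difference below has a replicate check and no test was run. The libraries held between 14363065 and 21883855 fragments. Folds and ratios printed with an interval are ratios of fragments per library total, with no pseudocount. Their intervals are exact at 95% (approximate for differences between responses), were computed on the fragments recovered from the FPKM, and reflect counting error alone, without the variation from culture to culture. Log2 fold changes were taken on log2(FPKM + 1), which makes changes of weakly expressed genes look smaller. The threshold for calling a gene was 2-fold on that scale, in either direction. Of 9 epithelial marker genes, 8 reached FPKM 1 in every library, and the summed FPKM of the 9 was 1889.6 in HM_Ctrl, 624 in HM_DFX, and for 4T1-LM 2385 with DMSO and 1172 with DFX. Summed FPKM of 7 fibroblast markers ranged from 3.66 to 6.39. The largest part in each library was Pdgfra, at 3.18 with DMSO and 4.51 with DFX in 4T1-HM, and 2.77 and 5.5 in 4T1-LM. Postn was at 2.09 with DMSO and 0.756 with DFX in 4T1-LM, and at most 0.144 in 4T1-HM. Col1a1 reached 0.998 in LM_Ctrl, and Lum was at 0 in all 4 libraries. The summed FPKM was at most 0.702 for 6 neutrophil markers, of which S100a9, Ly6g, Mpo and Camp were at 0 in every library, and at most 0.203 for 4 endothelial markers. The summed FPKM of 7 macrophage markers was 13.3 in HM_Ctrl and 38.8 in HM_DFX, against 12.4 in LM_Ctrl and 84.7 in LM_DFX, and nearly all of it was Cd68, which encodes a lysosomal membrane protein. Mrc1 was at 0.159 in HM_Ctrl and 1.20 in HM_DFX, and at 0.0898 in LM_Ctrl and 1.54 in LM_DFX. Csf1r, Lyz2 and Ptprc were at most 0.171, and Adgre1 and C1qa were at 0 in all 4 libraries. The part of these epithelial, fibroblast and macrophage marker values in the results below was not tested.

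Matrix metalloproteinases are zinc enzymes that are made as inactive precursors and cut collagens, laminins, proteoglycans and other proteins around the cell. The tissue inhibitors of metalloproteinases (TIMPs) bind their active sites. Urokinase, a serine protease held at the cell surface by its receptor, turns plasminogen into plasmin, which cuts matrix and can activate metalloproteinase precursors. In breast tumours these enzymes are studied for their part in the passage of cells through basement membrane and stroma, and tumour cells share their production with fibroblasts and leukocytes.

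Under DFX, transcripts of Mmp3, Mmp14, Plau and Timp1 were at least 2-fold lower in both clones, Timp2 passed that threshold in 4T1-HM and Mmp9 in 4T1-LM. With 1 added to the FPKM, no gene of the group was at least 2-fold higher under DFX in either clone. On fragments in 4T1-HM, Mmp13 was 2.01-fold higher and Mmp9 2.19-fold lower under DFX. Between the clones, Mmp3 was higher in 4T1-HM, and Mmp9 and Timp1 were higher in 4T1-LM, with DMSO and with DFX. In a bulk library, fewer cells making a transcript and less of it per cell cannot be told apart.

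**Figure D1:**
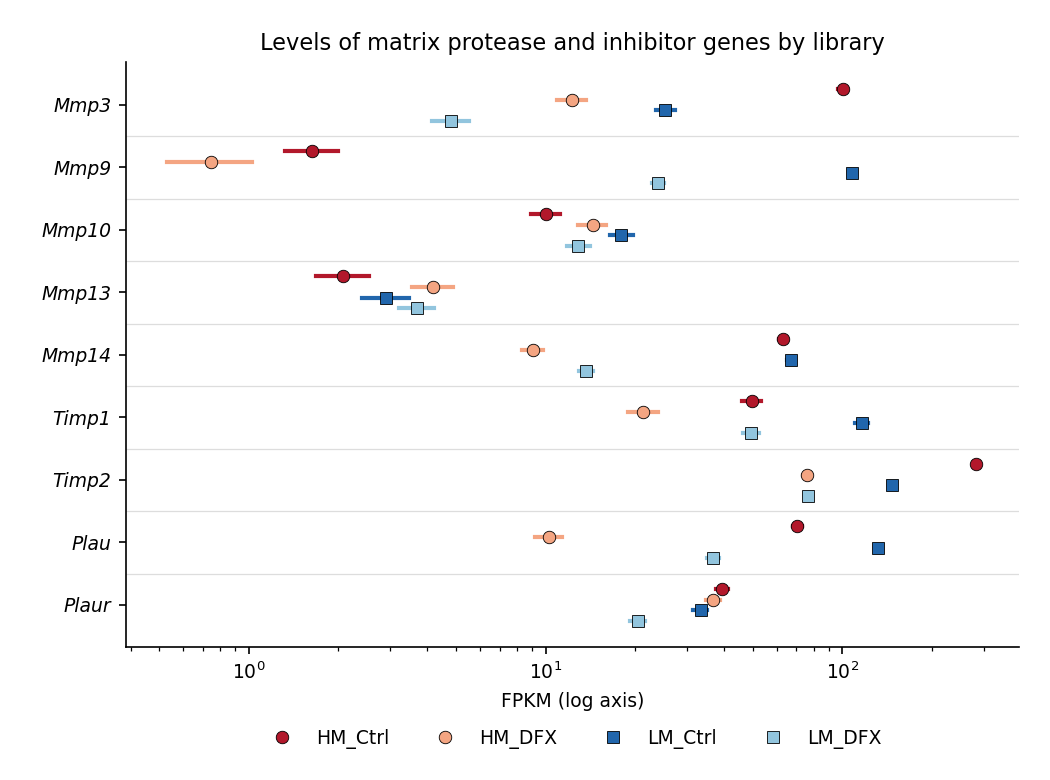
Expression of the 9 expressed genes in the 4 libraries, as FPKM on a log axis, with 95% counting intervals as bars. Mmp9 runs from 0.748 in HM_DFX to 108 in LM_Ctrl, and Mmp13 stays between 2.08 and 4.17. Timp3, at 0 in 3 libraries, is left out.

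Mmp3 (ENSMUSG00000043613, chromosome 9 from 7445822 to 7455975 of mm10, plus strand) encodes stromelysin-1, which cuts proteoglycans, laminin and fibronectin and activates other metalloproteinase precursors. Its FPKM was 100.3 with DMSO and 12.3 with DFX in 4T1-HM, and 25.3 and 4.80 in 4T1-LM, from 3024, 317, 716 and 189 fragments. All 4 levels stood apart beyond counting error, and HM_Ctrl was the highest. Mmp3 was 8.18-fold lower under DFX in 4T1-HM (counting interval 7.29 to 9.21, log2 fold change −2.93) and 5.27-fold lower in 4T1-LM (4.48 to 6.22, log2 fold change −2.18). The difference between the clones was 3.97-fold with DMSO (3.66 to 4.31) and 2.56-fold with DFX (2.13 to 3.08), with 4T1-HM above 4T1-LM each time. Among the expressed genes of each library, Mmp3 moved from percentile 96.5 in HM_Ctrl to 63.8 in HM_DFX, and from 80.4 in LM_Ctrl to 38.4 in LM_DFX.

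Mmp10 (ENSMUSG00000047562, chromosome 9 from 7502352 to 7510240, plus strand) encodes stromelysin-2, the nearest relative of stromelysin-1. Its FPKM was 10.0 and 14.4 in HM_Ctrl and HM_DFX, and 18.0 and 12.9 in LM_Ctrl and LM_DFX, from 289, 356, 488 and 487 fragments. LM_Ctrl was the highest and HM_Ctrl the lowest, and HM_DFX and LM_DFX did not differ beyond counting error (ratio 1.11, counting interval 0.969 to 1.28). The ratio of DFX to DMSO was 1.44 in 4T1-HM (1.23 to 1.68) and 0.717 in 4T1-LM (0.631 to 0.815), so the clones moved in opposite directions, each by less than 2-fold. The ratio of Mmp3 to Mmp10 FPKM was 10.0 in HM_Ctrl and 0.851 in HM_DFX, against 1.40 in LM_Ctrl and 0.371 in LM_DFX. Mmp3 transcripts thus outnumbered those of Mmp10 per length in both DMSO libraries and in neither DFX library. Of the 31-base words in their exons, 14.6% of those of Mmp3 and 11.9% of those of Mmp10 also occur in another gene. These words are mainly shared between Mmp3 and Mmp10. The reads were 150 bases long, and whether any whole fragment fits both genes was not tested.

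Mmp13 (ENSMUSG00000050578, chromosome 9 from 7272514 to 7283331, plus strand) encodes collagenase-3, which cuts fibrillar collagen. It was low throughout, with an FPKM of 2.08 with DMSO and 4.17 with DFX in 4T1-HM, and 2.90 and 3.68 in 4T1-LM, from 93, 160, 122 and 215 fragments. The DFX libraries were above the DMSO library of the same clone and did not differ from each other beyond counting error (ratio 1.13, 0.918 to 1.40). The ratio of DFX to DMSO was 2.01 in 4T1-HM (1.54 to 2.62) and 1.27 in 4T1-LM (1.01 to 1.60). With 1 added to the FPKM, the log2 fold changes were 0.75 and 0.26, and neither passed 2-fold.

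Mmp3, Mmp10 and Mmp13 lie in a cluster of metalloproteinase genes on chromosome 9. The 10 listed metalloproteinase genes of this cluster span 427 kb, from 7272514 to 7699585, and 4 of them were expressed. The fourth, Mmp12 (ENSMUSG00000049723), encodes macrophage elastase and lies at 7344381 to 7369499, between Mmp13 and Mmp3. It rested on 1 fragment in each DMSO library, on 225 in HM_DFX and on 92 in LM_DFX. The FPKM of Mmp12 was 2.16 in HM_DFX and 0.581 in LM_DFX, and the ratio of DFX to DMSO was 262 in 4T1-HM (46.6 to 10407) and 66.1 in 4T1-LM (11.6 to 2640.2), with wide intervals since the DMSO libraries held single fragments. Cd68 was also higher in the DFX libraries, at 12.9 in HM_Ctrl, 37.4 in HM_DFX, and for 4T1-LM 12.3 with DMSO and 83.1 with DFX, and so was Mrc1, another gene of the macrophage list, which went from 17 to 110 fragments in 4T1-HM (0.159 to 1.20 FPKM) and from 9 to 215 in 4T1-LM (0.0898 to 1.54 FPKM). Adgre1 and C1qa were at 0 throughout, and Ptprc held 4 fragments in LM_Ctrl, 1 in LM_DFX and none in 4T1-HM. The part of these genes in the Mmp12 values was not tested. The last bases of Mmp12 overlap those of Mmp1b on the opposite strand, and the use of strand in counting is not given in the sources used here. Mmp1b held 7, 4, 12 and 1 fragments in HM_Ctrl, HM_DFX, LM_Ctrl and LM_DFX. Mmp7, Mmp8, Mmp20 and Mmp27, the last genes of the cluster, had no fragment in any library. Along the cluster, neighbours therefore went different ways in 4T1-HM under DFX, with Mmp12 called higher, Mmp3 called lower, and Mmp13 and Mmp10 not called.

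The start regions of these genes are shown because Mmp3, Mmp10 and Mmp13 hold the same letters at a like distance from the start while their DFX values differ. The promoters are RefSeq sequences on GRCm38.p6, the build of mm10, and 8 of the 10 genes matched an entry. Mmp9 and Plau had none. The 120 bases before the start are chr9:7445702-7445821 for Mmp3, chr9:7502222-7502341 for Mmp10, chr9:7272394-7272513 for Mmp13 and chr7:24462363-24462482 for Plaur, all on the plus strand. They are written 5′ to 3′, ending at the base before the start, and the capitals mark the AP-1 letters TGANTCA, which read the same on both strands.
Mmp3: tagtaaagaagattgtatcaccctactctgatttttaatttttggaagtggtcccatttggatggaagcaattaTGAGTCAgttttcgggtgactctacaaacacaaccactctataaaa
Mmp10: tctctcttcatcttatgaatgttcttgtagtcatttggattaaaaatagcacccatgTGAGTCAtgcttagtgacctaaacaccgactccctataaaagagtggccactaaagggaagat
Mmp13: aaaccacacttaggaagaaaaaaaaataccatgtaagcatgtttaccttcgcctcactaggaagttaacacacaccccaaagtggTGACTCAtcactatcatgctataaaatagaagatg
Plaur: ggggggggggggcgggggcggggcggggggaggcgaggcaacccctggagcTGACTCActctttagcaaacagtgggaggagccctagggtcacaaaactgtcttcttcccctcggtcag
The first base of the marked letters lies at −46 in Mmp3, −63 in Mmp10, −35 in Mmp13 and −69 in Plaur. Within 250 bases before the start, 4 of the 8 promoters held these letters, against 6.75% of 32851 promoters of the same length. Of the genes that hold them, Mmp3 was called lower under DFX in both clones, and Mmp10, Mmp13 and Plaur were called in neither. Mmp12, which is outside the group, holds the letters at −44 in 1 of its promoter entries and was called higher in 4T1-HM. The letters ACGTG or GCGTG, the core of the site read by hypoxia-inducible factors, were found on either strand in Timp1, Timp2, Timp3 and Mmp14, 4 of the 8 promoters, against 38.6% of all. AGGAA, the ETS core, was in 7 of the 8 and in 60.3% of all. The NF-kappaB letters, GGGA and CC with any 4 bases between them, were in Plaur alone, 1 of the 8, and in 17.6% of all. An NF-kappaB match in Plaur overlaps none of the AP-1 letters. A match of letters is a description and shows no binding.

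Mmp9 (ENSMUSG00000017737, chromosome 2 from 164940780 to 164955850, plus strand) encodes gelatinase B, which cuts the type IV collagen of basement membranes. It varied most of the group, over a range of 5.96 on the scale of log2(FPKM + 1). Its FPKM was 1.64 in HM_Ctrl and 0.748 in HM_DFX, against 108 in LM_Ctrl and 24.0 in LM_DFX, from 97, 38, 5999 and 1860 fragments. All 4 levels stood apart beyond counting error, and both 4T1-LM libraries were above both 4T1-HM libraries. Under DFX, Mmp9 was 4.49-fold lower in 4T1-LM (4.26 to 4.73). In 4T1-HM the ratio on fragments was 2.19-fold toward lower values (1.49 to 3.28), and the log2 fold change with the pseudocount was −0.59. The clones differed 65.8-fold with DMSO (53.9 to 81.3) and 32.1-fold with DFX (23.3 to 45.5). After DFX, the LM_DFX level was still 14.7-fold above that of HM_Ctrl (12 to 18.2).

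Mmp14 (ENSMUSG00000000957, chromosome 14 from 54431612 to 54441265, plus strand) encodes MT1-MMP, a metalloproteinase anchored in the membrane that cuts collagen at the cell surface and activates proMMP-2. Its FPKM was 63.1 with DMSO and 9.04 with DFX in 4T1-HM, and 67.1 and 13.7 in 4T1-LM, from 4541, 558, 4539 and 1291 fragments. The DMSO libraries of the clones differed by a ratio of 0.940 (0.902 to 0.980), and both DFX libraries were below them. Under DFX, Mmp14 was 6.98-fold lower in 4T1-HM (6.39 to 7.64) and 4.89-fold lower in 4T1-LM (4.6 to 5.21), so that HM_DFX held 0.659 of the LM_DFX level (0.595 to 0.728). Mmp2, the gene of the precursor that MT1-MMP activates, had 7 fragments in LM_Ctrl, an FPKM of 0.132, and none in the other libraries.

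**Figure D2:**
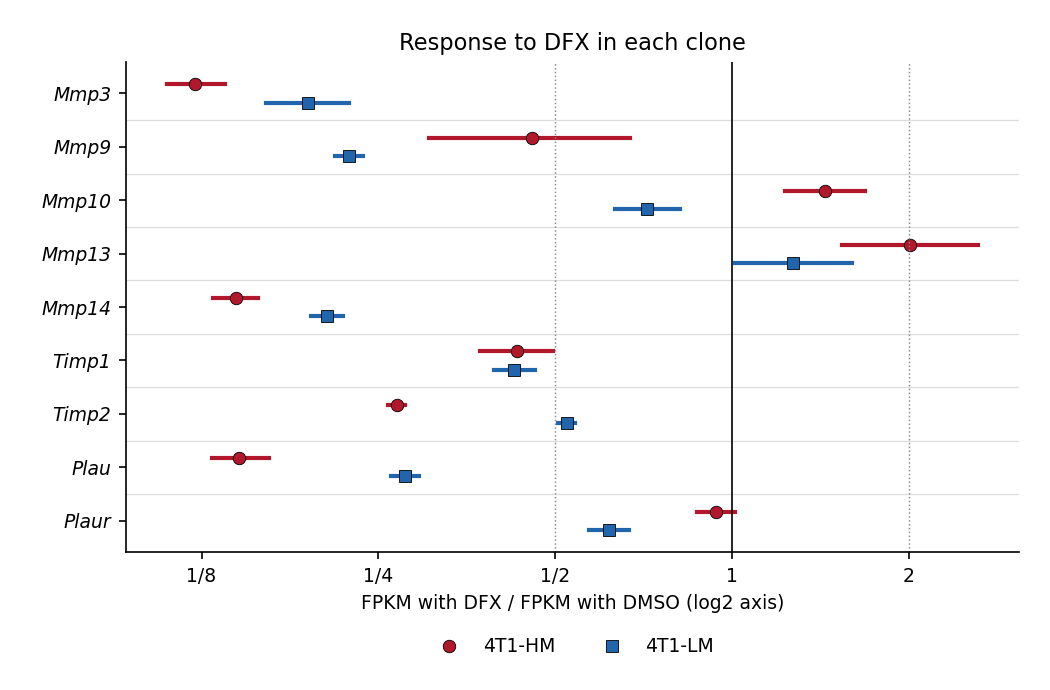
Ratio of FPKM with DFX to FPKM with DMSO for each of the 9 expressed genes in 4T1-HM and 4T1-LM. The ratios have no pseudocount, and the bars are counting intervals. They run from 0.122 for Mmp3 in 4T1-HM to 2.01 for Mmp13 in 4T1-HM. Mmp10 moves in opposite directions, with 1.44 in 4T1-HM and 0.717 in 4T1-LM.

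The inhibitors were led by Timp2 (ENSMUSG00000017466, chromosome 11 from 118301069 to 118355740, minus strand). TIMP-2 inhibits metalloproteinases and also takes part in the activation of proMMP-2 by MT1-MMP. Timp2 was the most abundant gene of the group in each library, with an FPKM of 282 and 75.8 in HM_Ctrl and HM_DFX, and 147 and 76.6 in LM_Ctrl and LM_DFX, from 18403, 4244, 8990 and 6535 fragments. HM_Ctrl was the highest, LM_Ctrl was next, and HM_DFX and LM_DFX did not differ beyond counting error (ratio 0.989, 0.952 to 1.03). Timp2 was 3.72-fold lower under DFX in 4T1-HM (3.60 to 3.85), whereas in 4T1-LM the ratio of DMSO to DFX was 1.91 (1.85 to 1.98) and did not pass 2-fold. The clones thus differed 1.92-fold with DMSO (1.88 to 1.97) and met under DFX.

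Timp1 (ENSMUSG00000001131, chromosome X from 20870166 to 20874735, plus strand) encodes TIMP-1, a secreted inhibitor that also binds proMMP-9. Its FPKM was 49.6 in HM_Ctrl and 21.3 in HM_DFX, against 116 in LM_Ctrl and 49.3 in LM_DFX, from 737, 272, 1618 and 958 fragments. LM_Ctrl was the highest, HM_DFX the lowest, and HM_Ctrl and LM_DFX did not differ beyond counting error (ratio 1.01, 0.912 to 1.11). The fall under DFX was 2.32-fold in 4T1-HM (2.02 to 2.68) and 2.35-fold in 4T1-LM (2.17 to 2.55). The difference of those responses on the log2 scale of the fragments was 0.02, with a counting interval of −0.22 to 0.25. 4T1-LM exceeded 4T1-HM by 2.34-fold with DMSO (2.14 to 2.55) and by 2.31-fold with DFX (2.02 to 2.65).

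Timp3 (ENSMUSG00000020044, chromosome 10 from 86300372 to 86349506, plus strand) encodes TIMP-3, an inhibitor bound to the matrix. It had 0 fragments in HM_Ctrl, HM_DFX and LM_Ctrl and 1 fragment in LM_DFX, an FPKM of 0.00561. A count of 0 allows up to 3 fragments as a one-sided limit, which in these libraries would be FPKM values of 0.0220, 0.0256 and 0.0234. Timp3 was thus not detectable at this depth in 3 libraries, and no fold change is given. Of its exon bases, 21.3% overlap Syn3 on the opposite strand. Timp4, the remaining gene of the family, was at 0 in all 4 libraries. Reck, which encodes a membrane-anchored inhibitor and was the 1 expressed gene of 6 other listed inhibitors, was at 1.61 and 0.626 FPKM in HM_Ctrl and HM_DFX, and 1.22 and 0.880 in LM_Ctrl and LM_DFX, and did not pass 2-fold in any comparison with 1 added to the FPKM. On fragments Reck was 2.57-fold lower under DFX in 4T1-HM (ratio 0.389, 0.269 to 0.553).

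Plau (ENSMUSG00000021822, chromosome 14 from 20836662 to 20843388, plus strand) encodes urokinase. Its FPKM was 70.5 with DMSO and 10.3 with DFX in 4T1-HM, and 132 and 36.7 in 4T1-LM, from 2768, 345, 4877 and 1884 fragments. All 4 levels stood apart beyond counting error, with LM_Ctrl the highest. Plau was 6.88-fold lower under DFX in 4T1-HM (6.15 to 7.72) and 3.60-fold lower in 4T1-LM (3.41 to 3.80). The 4T1-LM level exceeded that of 4T1-HM by 1.88-fold with DMSO (1.79 to 1.97), short of the threshold, and by 3.58-fold with DFX (3.19 to 4.03).

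Plaur (ENSMUSG00000046223, chromosome 7 from 24462484 to 24475968, plus strand) encodes the urokinase receptor. Its FPKM was 39.2 in HM_Ctrl, 36.7 in HM_DFX, and for 4T1-LM 33.3 with DMSO and 20.5 with DFX, from 1719, 1381, 1369 and 1174 fragments. HM_Ctrl and HM_DFX did not differ beyond counting error (ratio 0.937, 0.872 to 1.01), and LM_DFX was the lowest. In 4T1-LM the ratio of DFX to DMSO was 0.616 (0.570 to 0.667), and the receptor passed 2-fold in no comparison. The ratio of Plau to Plaur FPKM was 1.80 in HM_Ctrl and 0.279 in HM_DFX, against 3.98 in LM_Ctrl and 1.79 in LM_DFX. The enzyme transcript was thus below that of its receptor, per length, in HM_DFX alone.

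Set against all expressed genes, the group leaned to lower values under DFX. The group was chosen with earlier results of these data known, so the shares here and below describe its genes and test nothing. In HM_DFX against HM_Ctrl, 5 of 9 were called lower, against 12.4% of all expressed genes, and 0 were called higher, against 6.93%. Their median log2 fold change was −1.18, beside −0.10 over all expressed genes. In LM_DFX against LM_Ctrl, 5 of the 9 were lower, against 8.72%, and 0 were higher, against 7.09%, with medians of −1.22 and −0.04. The genes called lower in both clones were Mmp3, Mmp14, Timp1 and Plau, 4 of the 9, where 5.32% of all expressed genes were. Scaling the libraries by the median of gene ratios moved the median of all genes in HM_DFX against HM_Ctrl from −0.10 to 0.00, and the share of higher calls among all calls from 35.9% to 46.9%, and left the 5 calls of the group in place.

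Between the clones with DMSO, 1 of the 9 genes passed 2-fold with HM_Ctrl above LM_Ctrl, against 3.65% of all expressed genes, and it was Mmp3. The 2 lower ones, against 3.15%, were Mmp9 and Timp1. With DFX, Mmp3 was again the 1 gene that was higher in HM_DFX than in LM_DFX, against 3.31%, and Mmp9, Timp1 and Plau were the 3 that were lower, against 5.05%. The median log2 difference of the group was −0.34 with DMSO and −0.02 with DFX, where all expressed genes had 0.01 and −0.05. The comparison of the clones with DMSO shares HM_Ctrl with the DFX comparison in 4T1-HM and LM_Ctrl with that in 4T1-LM, and the comparison of the clones with DFX shares HM_DFX and LM_DFX with them.

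**Figure D3:**
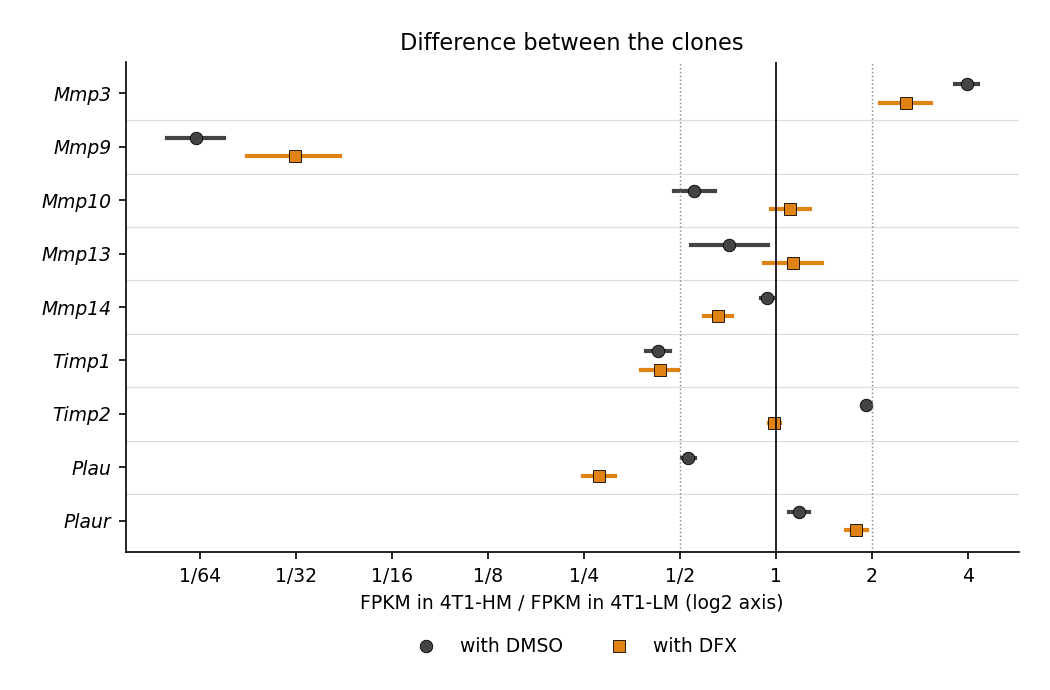
Ratio of FPKM in 4T1-HM to FPKM in 4T1-LM for each of the 9 expressed genes, with DMSO and with DFX. The ratios have no pseudocount, and the bars are counting intervals. Mmp3 is higher in 4T1-HM in both (3.97 and 2.56). Mmp9 has the lowest ratios (0.0152 and 0.0311), and Timp2 moves from 1.92 to 0.989.

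The DFX response itself was compared between the clones as the log2 fold change in 4T1-HM minus that in 4T1-LM. At a difference of 2-fold, Mmp9 was the 1 gene of the 9 with a higher value, 1.53, against 3.52% of all expressed genes, and 0 had a lower one, against 5.38%. On fragments without a pseudocount, that difference for Mmp9 was 1.04, with a counting interval of 0.49 to 1.58. The value for Mmp10 was 0.93 with the pseudocount and 1.00 without it (0.71 to 1.29). Timp2, Plau, Mmp3 and Mmp14 went the other way, with a deeper fall in 4T1-HM. Without a pseudocount the difference was −0.96 for Timp2 (−1.03 to −0.89), −0.93 for Plau (−1.11 to −0.76), −0.63 for Mmp3 (−0.92 to −0.35) and −0.51 for Mmp14 (−0.67 to −0.36). For Plaur it was 0.60 (0.45 to 0.76) and for Mmp13 0.66 (0.17 to 1.15). Apart from that of Timp1, these counting intervals leave out 0, but with 1 culture per condition the difference between the responses was not tested.

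The make-up of the enzyme pool differed between the clones. Summed over the 5 metalloproteinases, FPKM was 177 with DMSO and 40.6 with DFX in 4T1-HM, and 221 and 59.1 in 4T1-LM. Mmp3 made up 56.6% of that sum in HM_Ctrl and 11.4% in LM_Ctrl, whereas Mmp9 made up 0.924% and 48.7%. Mmp14 held a more even share, 35.6% in HM_Ctrl and 30.4% in LM_Ctrl. Under DFX the share of Mmp3 was 30.2% in HM_DFX and 8.11% in LM_DFX, that of Mmp9 was 1.84% and 40.6%, and that of Mmp14 was 22.3% and 23.2%. With DMSO, the leading pair was Mmp3 and Mmp14 in 4T1-HM and Mmp9 and Mmp14 in 4T1-LM.

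The sum of the inhibitor transcripts was also lower with DFX than with DMSO. Summed over the 3 inhibitors, FPKM was 332 and 97.2 in HM_Ctrl and HM_DFX, and 263 and 126 in LM_Ctrl and LM_DFX. Timp2 made up between 55.9% of this sum in LM_Ctrl and 85.1% in HM_Ctrl, and the rest was Timp1. The ratio of summed metalloproteinases to summed inhibitors was 0.534 in HM_Ctrl and 0.418 in HM_DFX, against 0.842 in LM_Ctrl and 0.469 in LM_DFX. It was below 1 in each library, highest in LM_Ctrl, and lower with DFX than with DMSO in both clones. By pair, the ratio of Timp2 to Mmp14 was 4.47 with DMSO and 8.39 with DFX in 4T1-HM, and 2.19 and 5.59 in 4T1-LM. The ratio of Timp1 to Mmp9 was 30.3 and 28.5 in HM_Ctrl and HM_DFX, and 1.07 and 2.05 in LM_Ctrl and LM_DFX. These are ratios of transcript levels per length and say nothing of active enzyme.

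**Figure D4:**
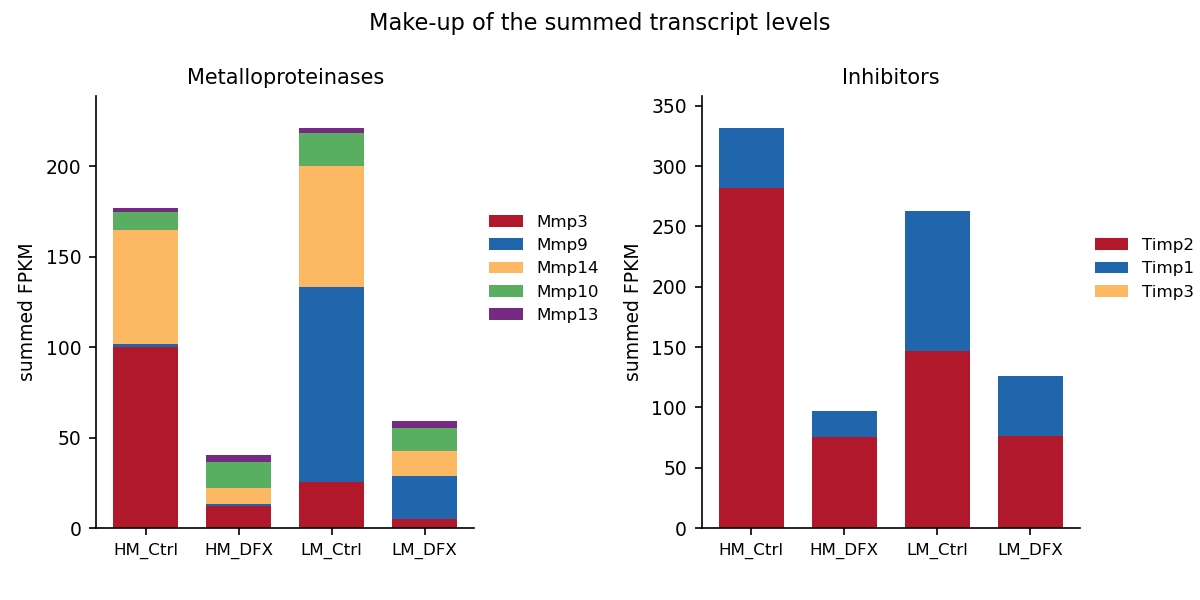
Summed FPKM of the 5 metalloproteinases (left) and of the 3 inhibitors (right) in each library, split by gene on linear axes. The metalloproteinase sum is mostly Mmp3 and Mmp14 in HM_Ctrl and Mmp9 and Mmp14 in LM_Ctrl, and Timp2 is the larger inhibitor part in each library. Timp3 is too low to be seen.

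Within the group, the genes most alike over the 4 libraries were Mmp10 and Mmp13, with a root mean square difference of 0.29 between their centred log2(FPKM + 1), then Mmp10 and Plaur, with 0.47, and then Mmp14 and Plau, with 0.52. Mmp10 and Mmp13 were also the pair with the narrowest ranges, 0.79 and 0.75. For Mmp9 and Mmp3, the genes with the widest ranges, the 3 most similar protein-coding genes were sought by the same measure over the 4 libraries. For Mmp9 they were Ctsw, which encodes cathepsin W (0.16), Rgs16, a regulator of G protein signaling (0.29), and Sfn, which encodes 14-3-3 sigma (0.36). The FPKM of Ctsw was 2.52 in HM_Ctrl, 1.24 in HM_DFX, and for 4T1-LM 109 with DMSO and 27.9 with DFX. For Mmp3 they were Aldh3a1, an aldehyde dehydrogenase gene (0.14), Mgp, which encodes matrix Gla protein (0.35), and Padi1, a peptidylarginine deiminase gene (0.36). The FPKM of Aldh3a1 was 34.6 in HM_Ctrl and 3.55 in HM_DFX, against 7.79 in LM_Ctrl and 1.46 in LM_DFX. With 4 libraries, many genes can share a pattern.

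The surrounding pathway was followed through 115 other listed genes, of which 68 were expressed. In 4T1-HM under DFX, 17 of the 68 were at least 2-fold lower and 6 higher (median log2 fold change −0.37), where 12.4% and 6.93% of all expressed genes were. In 4T1-LM, 10 were lower and 6 higher (−0.21), where 8.72% and 7.09% of all were. The higher count in 4T1-HM dropped to 2 with a filter on mean FPKM, and that in 4T1-LM reached 10 with a pseudocount of 0.1. Between the clones, 7 were higher and 7 lower in HM_Ctrl than in LM_Ctrl, beside 3.65% and 3.15% of all, and 5 were higher and 13 lower in HM_DFX than in LM_DFX, beside 3.31% and 5.05%. Of the 18 other metalloproteinases, 5 were expressed. Mmp11, which encodes stromelysin-3, was at 7.08 and 1.00 FPKM in HM_Ctrl and HM_DFX, and 6.77 and 2.98 in LM_Ctrl and LM_DFX, and was called lower in 4T1-HM. In 4T1-LM its log2 fold change was −0.96, short of the threshold, and it was 2.27-fold lower on fragments. Mmp28, which encodes epilysin, went from 0.246 to 2.05 in 4T1-LM, where it was called higher, and from 0.108 to 0.701 in 4T1-HM.

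Of 13 other listed genes of the plasminogen system and of coagulation, 9 were expressed. Under DFX, 4 were called higher and 1 lower in 4T1-HM (all expressed genes, 6.93% and 12.4%), and 2 higher and 0 lower in 4T1-LM (7.09% and 8.72%). Plat encodes tissue plasminogen activator, the other enzyme that makes plasmin. Its FPKM was 3.06 with DMSO and 7.95 with DFX in 4T1-HM, and 2.04 and 20.2 in 4T1-LM. Plat was thus higher under DFX in both clones, 2.60-fold in 4T1-HM (2.27 to 2.97) and 9.92-fold in 4T1-LM (8.59 to 11.5), while Plau was lower in both. F3, which encodes tissue factor, was also called higher in both clones, from 2.15 to 8.90 in 4T1-HM and from 6.36 to 14 in 4T1-LM. Serpine2, which encodes protease nexin-1, was at 5.30 in HM_Ctrl and 1.92 in HM_DFX against 0.222 in LM_Ctrl and 0.165 in LM_DFX.

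**Figure D5:**
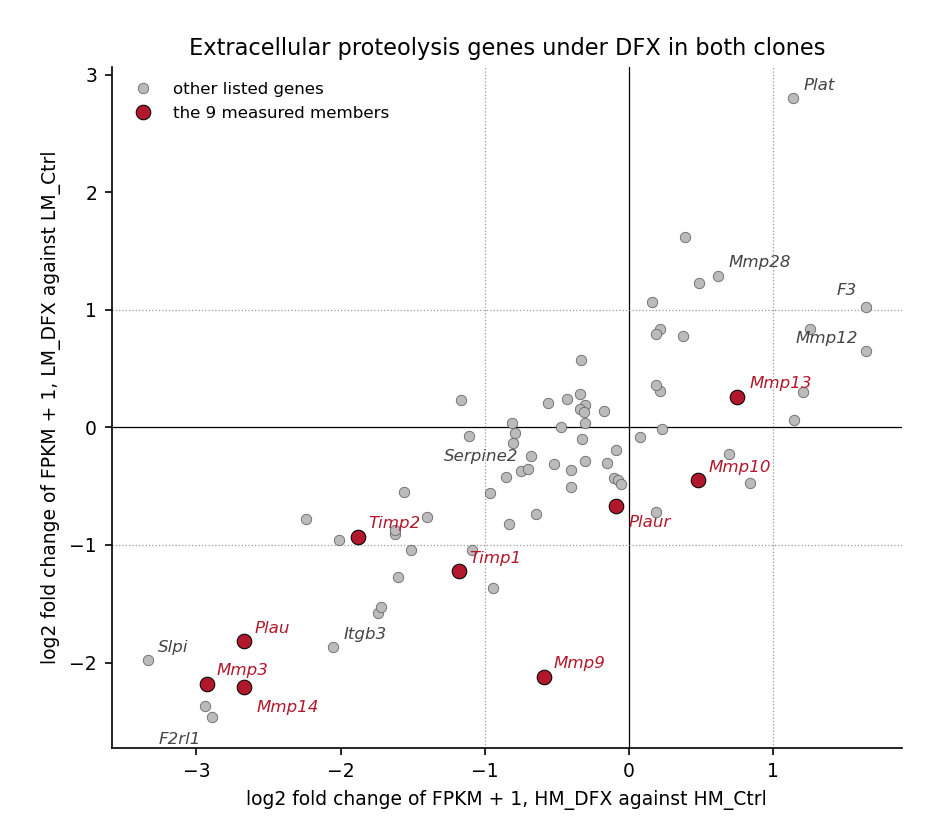
Log2 fold change of FPKM + 1 under DFX in 4T1-HM (x axis) and 4T1-LM (y axis) for the 9 expressed genes of the group and the 68 expressed genes of the other lists, with dotted lines at 2-fold. Mmp3, Mmp14 and Plau lie at the lower left, and Plat is at the upper right. On this scale Mmp9 passes the lower line in 4T1-LM only (−2.12, with −0.59 in 4T1-HM). On fragments it was also 2.19-fold lower in 4T1-HM.

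Of 14 expressed ADAM and ADAMTS genes, 3 were called lower under DFX in each clone and 0 higher, where 12.4% of all expressed genes were lower in 4T1-HM and 8.72% in 4T1-LM. Adam19 was among them in both, from 4.67 to 0.695 in 4T1-HM and from 5.96 to 1.33 in 4T1-LM. Adam8, which encodes a membrane-bound protease found on leukocytes and tumour cells, was 21.3-fold lower in HM_Ctrl than in LM_Ctrl, with an FPKM of 0.670 against 14.3. Among 9 other pericellular enzymes, mostly proteases, 4 were called lower in 4T1-HM and 2 in 4T1-LM, against the same shares of 12.4% and 8.72%. Of these 9 enzyme genes, 0 were higher in either clone. Bmp1, which encodes the procollagen C-proteinase, was lower in both clones, from 111 to 36.1 in 4T1-HM and from 112 to 45.6 in 4T1-LM. Klk10, a kallikrein gene, went from 19.7 to 3.40 in 4T1-HM and from 16.9 to 9.42 in 4T1-LM, and passed 2-fold in the former.

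The 8 expressed cathepsins, proteases mainly of the lysosome, held 1 gene called lower under DFX in 4T1-HM, where 12.4% of all expressed genes were, and 2 called higher in 4T1-LM, where 7.09% were. Ctsl, at 1397 in HM_Ctrl and 528 in HM_DFX, against 632 in LM_Ctrl and 373 in LM_DFX, was the lower gene in 4T1-HM. Ctsd was at 107 with DMSO and 151 with DFX in 4T1-HM, and 50.9 and 120.3 in 4T1-LM, and was called higher in 4T1-LM. Among 11 expressed inhibitors of the serpin, cystatin, Kunitz and whey acidic protein families, 3 were lower in 4T1-HM and 2 in 4T1-LM. Of all expressed genes, 12.4% and 8.72% were. The lower inhibitors were Slpi and Wfdc2 in both clones and Spint1 in 4T1-HM. Slpi, an inhibitor of leukocyte elastase, was 11.7-fold lower in 4T1-HM and 4.17-fold lower in 4T1-LM. Wfdc2, which encodes a related whey acidic protein domain, was 7.88-fold and 5.2-fold lower. Of 11 receptors and inducers, 4 were lower and 1 higher in 4T1-HM, beside 12.4% and 6.93% of all, and 3 were lower and 1 higher in 4T1-LM, beside 8.72% and 7.09%. F2rl1, which encodes the protease-activated receptor PAR2, was 11.7-fold lower in 4T1-HM and 6.5-fold lower in 4T1-LM, and Itgb3, an integrin beta subunit gene, 13.7-fold and 4.67-fold. Bsg encodes basigin, known as an inducer of metalloproteinases, and rose 3.09-fold in 4T1-LM, with an FPKM of 191 in LM_Ctrl and 588 in LM_DFX, beside 262 in HM_Ctrl and 343 in HM_DFX. Mrc2, which encodes a collagen uptake receptor, was called higher in 4T1-HM, from 0.0716 to 1.48, and went from 0.0476 to 0.288 in 4T1-LM.

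Some pathway genes set the clones apart with little change under DFX. Hpse, which encodes heparanase, was at 1.87 in HM_Ctrl and 1.33 in HM_DFX, and at 0 in LM_Ctrl and 0.026 in LM_DFX. Ngfr, a nerve growth factor receptor gene, was at 2.95 in HM_Ctrl and 3.62 in HM_DFX, against 0.0184 in LM_Ctrl and 0.0133 in LM_DFX. Serpinb5, which encodes maspin, lay the other way, at 0.869 in HM_Ctrl and 0.760 in HM_DFX and at 4.35 in LM_Ctrl and 3.67 in LM_DFX. Each of these 3 genes passed 2-fold between the clones with DMSO and with DFX, and in neither clone under DFX. Pcsk6, a proprotein convertase gene, was at 0.104 in HM_Ctrl and 1.14 in LM_Ctrl, and at 0.0671 and 0.537 with DFX. With 1 added to the FPKM it passed 2-fold in no comparison. On fragments it was 11-fold lower in HM_Ctrl than in LM_Ctrl (ratio 0.0909, 0.0403 to 0.18) and 8.01-fold lower in HM_DFX than in LM_DFX. Pcsk6 also changed under DFX on fragments, being 2.12-fold lower in 4T1-LM (ratio 0.472, 0.336 to 0.658). Ctsc, which encodes cathepsin C, likewise stayed short of 2-fold with the pseudocount and was 2.35-fold lower on fragments in HM_DFX than in LM_DFX, at 1.97 against 4.62 FPKM. Mmp15, Pcsk7 and Cstb, each the extreme of its list in some comparison, passed 2-fold in none on either scale.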

How the data were processed

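RNA from 4 cultures, 1 library per condition, was poly(A)-selected and made into directional libraries, and the study's methods also mention depletion of ribosomal RNA. The authors ran FastQC, Trimmomatic, HISAT2 and featureCounts on build mm10, per the labels, with versions and the use of strand not given in the sources used here, and deposited FPKM per gene. The study called genes with edgeR, which was not repeated here for want of replicates.

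FPKM + 1 were compared on the log2 scale. Fragments were recovered from the FPKM with GENCODE M21 exon lengths, or with a length solved from the gene's own values (2483 of 12669 expressed genes, Mmp14 and Plau among them), within 0.01 of a whole fragment. They summed to 99.5% of each library's total. Level intervals are Poisson, ratio intervals Clopper-Pearson, and those of response differences Wald intervals on the log scale. No count model was fitted, since 1 library per condition gives no spread. The calculations were tested on simulated data and used Python 3.11.15, numpy 2.4.6, pandas 2.3.3 and scipy 1.17.1.

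The 10 genes and the 8 other lists were chosen with earlier results of these data known. Genes of those lists were named where theirs was the largest rise or fall of the list in any comparison and the higher library reached FPKM 1, and Reck, Plat, Mmp2 and Timp4 always. A result that this rule covers is left out here. Mmp12's neighbours in the chromosome 9 cluster were named after their values were seen. Other settings tried were no filter, a filter on mean FPKM, a pseudocount of 0.1, median-ratio and 75th percentile scaling, and thresholds of 1.5-fold and 4-fold. Fragments without a pseudocount were added after seeing the data. Motifs of the proteins were not searched.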

Additional observations from a re-analysis of the deposited data

Results flagged for a closer look

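Of 42 genes checked, 9 of them members of the group, 7 moved in opposite directions under DFX in the clones, each beyond counting error. The other genes checked were each the largest rise or fall of a list in these same data. The share over all expressed genes was not computed, so the count describes these genes alone. The difference was not tested, since there was 1 library per condition, and each value below is the log2 fold change in 4T1-HM minus that in 4T1-LM. Mmp10 differed by 0.93, with 0.48 in 4T1-HM and −0.45 in 4T1-LM. For Adam8 the difference was 1.31 (0.84 and −0.47), and on fragments, without a pseudocount, Adam8 was 2.96-fold higher under DFX in 4T1-HM (2.13 to 4.16). For Adamts1, which encodes an aggrecan-cutting protease, the difference was 0.93 (0.70 and −0.23). Adamts14, a procollagen N-proteinase gene, went the other way with −1.39 (−1.16 and 0.23), and it passed 2-fold in 4T1-HM on the scale with the pseudocount. Ctsa, which encodes the lysosomal protective protein, differed by −0.89 (−0.33 and 0.57), the cystatin gene Cst6 by −0.62 (−0.34 and 0.28) and Serpinb9, an inhibitor of granzyme B, by −0.49 (−0.30 and 0.19).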

How the results depend on the processing

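Of 80 counts of the group's genes under alternatives, 64 stayed within 1.5 times the reported count and 16 moved further. A count could not be scored as reversed. Of 45 values of single genes of the group, 43 kept their sign and 42 their call under 6 alternatives of pseudocount, filter and scaling. The filters among these alternatives leave the values as they are and so could not change a sign or a call. They could not change the counts of the group either. Every expressed gene of the group passes them, and Timp3 is too low to be called. Timp2 in HM_DFX against LM_DFX reached 0.06 and Plaur in HM_DFX against HM_Ctrl 0.04, each from below 0. Mmp9 in HM_DFX against HM_Ctrl passed 2-fold with a pseudocount of 0.1 and without one, at −1.13 in the latter. Without a pseudocount Mmp13 reached 1.00 in HM_DFX against HM_Ctrl, which raised the higher count there from 0 to 1. The difference of the DFX responses had 2 higher genes in place of 1 under median-ratio scaling and without a pseudocount, where Mmp10 reached up to 1.01. At 1.5-fold, HM_Ctrl against LM_Ctrl had 2 higher and 4 lower genes, HM_DFX against HM_Ctrl 1 higher, HM_DFX against LM_DFX 2 higher, and the difference of responses 2 higher and 3 lower. At 4-fold, HM_Ctrl against LM_Ctrl had 0 higher and 1 lower, HM_DFX against HM_Ctrl 3 lower, LM_DFX against LM_Ctrl 3 lower, HM_DFX against LM_DFX 0 higher and 1 lower, and the difference of responses 0 higher. The thresholds act by construction, and the cause of the other shifts was not tested. Of 708 single values and counts of the other lists, those of the group's single genes included, 605 held and 103 moved. A reversal could be scored only for a single gene whose reported log2 fold change was at least 1 in size, and 0 were. The sign changes of Timp2 and Plaur above are therefore not counted as reversals. Over all expressed genes, a pseudocount of 0.1 moved the calls, higher and lower, from 462 and 399 to 883 and 674 in HM_Ctrl against LM_Ctrl, from 878 and 1568 to 1234 and 2397 in HM_DFX against HM_Ctrl, from 898 and 1105 to 1349 and 1721 in LM_DFX against LM_Ctrl, from 419 and 640 to 810 and 1183 in HM_DFX against LM_DFX, and from 446 and 682 to 744 and 1325 for the difference of responses. Without a pseudocount they ran from 605 to 2371, at 1.5-fold from 1102 to 3297 and at 4-fold from 36 to 180.

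No paired analysis was possible because each condition had 1 library and the labels share no replicate numbers, and leaving out a library would leave a condition empty. Depth limits Timp3, with at most 1 fragment, and then Mmp9 in 4T1-HM (97 and 38 fragments) and Mmp13 (93 to 215).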
